A study of Homo sapiens with 8 samples.

Results

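The messages for the proteins of the cytosolic ribosome were followed over all arrays of the series. The members were the probe sets that the platform annotation assigned to exactly 1 gene symbol of the RPL or RPS series, including paralogs such as RPL22L1 and RPS27L and the stalk proteins RPLP1 and RPLP2, with mitochondrial ribosomal proteins and pseudogenes left out. This gave 120 of 54675 probe sets, for 59 of the 19775 genes that had a probe set with 1 symbol. There were 68 probe sets for 38 large subunit genes and 52 for 21 small subunit genes. A further 65 probe sets listed a ribosomal protein together with another symbol and were not counted as members, so some well-known genes (RPL5, RPS2 and RPS3A among them) are not described.

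The arrays held RNA from HepG2, an established human hepatocellular carcinoma line. After serum starvation the cultures received serum-free medium alone (control) or in the same medium with 3 µM quercetin, a plant flavonol, and RNA was taken after 2, 4, 12 and 24 h. All 8 arrays therefore come from serum-deprived cells, and no group with serum is used here. There was 1 array for each treatment and time, 4 per treatment, so no condition had a replicate. P-values measure how far differences varied from time to time or between the treatments of one time. In limma this spread is pooled with that of other probe sets of similar signal, so it is not that of the probe set alone. With 4 times, an exact two-sided test that flips signs has 0.125 as its smallest p.

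Ribosomal proteins of the large subunit line the peptide exit tunnel and carry the stalk that recruits elongation factors, and those of the small subunit form the head and the decoding site. Their messages are among the most abundant in growing cells. Most begin with a 5′ terminal oligopyrimidine tract, a C followed by a run of C and T, through which the growth kinase mTOR and the protein LARP1 control their translation and stability, so that starvation is known to act on how well they are translated more than on how many there are.

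The annotated starts of the 7 genes that hold the probe sets of widest range are shown first, as background. Whether the start of a gene bears on the range of its probe sets was not tested. Each window holds 20 bases before and 10 from the transcription start on, from RefSeq on GRCh38.p14, and capitals mark an unbroken run of C and T that begins with a C at the start. RPL27A lies at chr11:8682772-8682801 (plus strand), RPLP2 at chr11:809947-809976 (plus), RPL38 at chr17:74203658-74203687 (plus), RPL37A at chr2:216498824-216498853 (plus), RPL14 at chr3:40457319-40457348 (plus), RPS10 at chr6:34426060-34426089 (minus) and RPS27L at chr15:63157468-63157497 (minus).
RPL27A: gagacttggcgaaggccttcCTTTTTCgtc
RPLP2: gcctcttgcgtcggcgccttCCTTTTCCTC
RPL38: ccggaaacggaagtctcgttCTTTTTCgtc
RPL37A: cctgcgcaccgcgtctcttcCTTTCTgggc
RPL14: gggttgggcgggtcttcttcCTTCTCgcct
RPS10: cagcaccgcgcatgctccttCCTTTCCagc
RPS27L: cccggaagttgatgccgagcgcagatcgct
The first 6 carry the tract at the annotated start and RPS27L, a paralog of RPS27 induced through p53, does not. Counting a run of at least 5 pyrimidines from a C at the start, read on the gene's own strand, 35 of the 51 member genes with an annotated start had one (68.6%), against 1404 of 27305 genes in the same table (5.14%). For comparison, 2 genes whose single probe set was bright and steady carry the tract too, RPL41 at chr12:56116613-56116642 (plus) and RPS18 at chr6:33272055-33272084 (plus).
RPL41: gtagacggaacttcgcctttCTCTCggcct
RPS18: gatatcgcgtcacttccgctCTCTCTTCCa

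Values are log2 signals as deposited, and a difference of 1 is a doubling of signal. The brightness of a probe set depends on its probes as well as on its message, so levels of different probe sets are not compared as amounts. Array medians lay between 7.36 and 7.48, and the SD of values within an array between 1.74 and 1.95. Hepatocyte lineage markers averaged 14.08 to 14.39 over the arrays (9 genes), leukocyte markers 8.88 to 9.31, fibroblast markers 8.12 to 8.44 and endothelial markers 6.90 to 7.28. In the leukocyte list LYZ, lysozyme, was alone bright, with a mean of 13.99. Of the 120 members, 105 (57 genes) had a mean above the median probe set, 7.43, and were tested, with p-values adjusted over all 27300 probe sets above that line. The 15 dim members included the only probe sets of RPL36A and of RPL39L, a paralog of RPL39 with a mean of 5.84, and 13 further probe sets of genes that were tested on another one. The dimmest was RPL35A 215249_at at 5.56, followed by RPL39L, and 1 probe set of RPS6 and 3 of RPS14 came next, none above 6.09.

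Most ribosomal protein messages gave a bright and steady signal. A mean above 13 was reached by 68 members of 50 genes, and their means ran from 13.003 to 15.15, close to the highest value in the table, 15.31. The range of these 68 over the 8 arrays, highest minus lowest, had a median of 0.29 and lay between 0.16 and 0.68, with 61 of them below 0.5. RPL37A 201429_s_at, for a protein of the large subunit, lay between 15.08 and 15.25. RPL41 201492_s_at, for a very short basic peptide of the large subunit, lay between 15.00 and 15.19, and RPS18 201049_s_at, for a protein of the small subunit head, between 14.80 and 14.96. RPS6 209134_s_at, for the protein phosphorylated by S6 kinase, lay between 14.40 and 14.56. The lowest and highest arrays of these genes thus differed by little in any condition. Over all 105 tested members the median range was 0.38, against 0.75 over all 27300 probe sets. Most of the 27300 were dimmer, since 533 in all had a mean above 13. Ranges were not compared among probe sets of like brightness, so the small range is not shown to be particular to ribosomal proteins. In RNA from whole cultures, a smaller share of cells with a message and less message per cell cannot be told apart. Signals are read relative to the rest of an array, and amounts per cell were not measured.

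A small set of members behaved otherwise. The range was above 2 for 8 members, or 7.62% of those tested, against 1.1% of all probe sets tested (300 of 27300), and above 1 for 16. These 8 were RPL27A 212044_s_at (4.16), RPLP2 200908_s_at (3.72), RPL37A 214041_x_at (3.66), RPL38 202028_s_at (3.33), RPL38 221943_x_at (3.00), RPS10 214001_x_at (2.80), RPS27L 222487_s_at (2.54) and RPL14 219138_at (2.09). The next widest was RPS24 1555878_at at 1.68. None of the 8 was among the 68 bright members, and their means lay between 8.88 and 11.45.

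**Figure D1:**
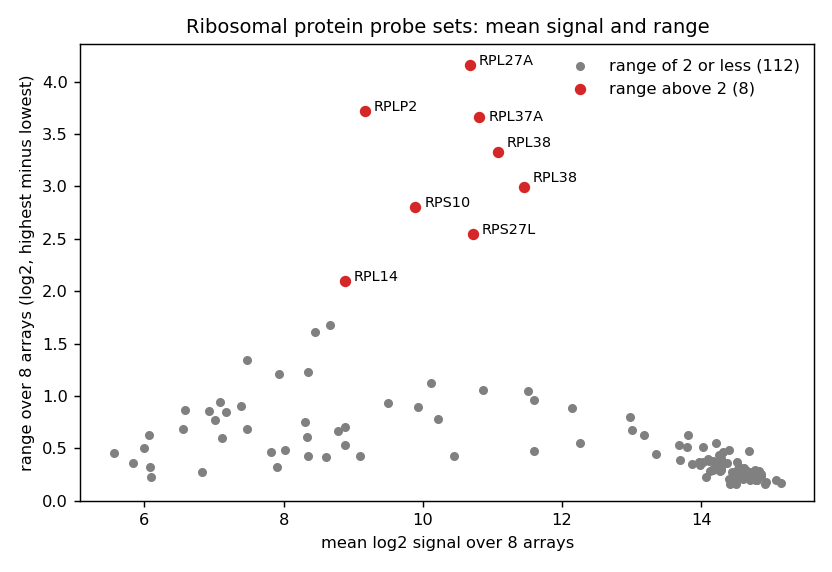
Each of the 120 ribosomal protein probe sets by its mean log2 signal over 8 arrays (horizontal) and its range over the arrays, highest minus lowest (vertical, log2). The 68 members with a mean above 13 all have a range of at most 0.68, while the 8 red points have ranges from 2.09 to 4.16 at means between 8.88 and 11.45.

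RPL27A encodes a large subunit protein and has this single probe set among the members. Its signal was 9.33 in control and 12.77 in quercetin after 2 h, 12.03 and 12.46 after 4 h, 8.61 and 8.71 after 12 h, and 11.59 and 9.89 after 24 h. The quercetin array after 2 h, both 4 h arrays and the control array after 24 h were high, and both 12 h arrays and the control array after 2 h were low, a span of 17.9-fold. Control and quercetin arrays overlapped.

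RPLP2, the acidic P2 protein of the stalk, followed the same order at lower signal. Its probe set 200908_s_at read 7.68 and 11.10 after 2 h (control, then quercetin), 10.78 and 10.74 after 4 h, 7.38 and 7.70 after 12 h, and 9.75 and 8.19 after 24 h. The same 3 arrays were lowest. RPLP1, its partner in the stalk, was steady on probe set 200763_s_at, with a range of 0.47 and a mean of 14.69.

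RPL38, a large subunit protein needed for translation of particular patterning messages in development, had a pair of such probe sets. On 202028_s_at the arrays read 10.20 and 12.55 after 2 h, 11.94 and 12.38 after 4 h, 9.88 and 9.22 after 12 h, and 12.06 and 10.40 after 24 h. On 221943_x_at they read 10.20 and 12.86, 12.40 and 12.87, 10.02 and 9.87, and 12.56 and 10.80. Both were high after 4 h and low after 12 h in either treatment, and split by treatment in opposite directions after 2 h and 24 h.

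RPL37A 214041_x_at read 8.60 and 11.82 after 2 h, 11.55 and 11.91 after 4 h, 8.94 and 9.81 after 12 h, and 12.26 and 11.59 after 24 h. Here the control array after 24 h was the highest of the 8, and the quercetin array after 24 h lay with the 4 h arrays. RPL14 219138_at, for a large subunit protein, read 8.03 and 9.95, 9.39 and 9.87, 7.86 and 8.21, and 9.47 and 8.25. Its span was the smallest of the 8, with the same arrays high and low as for RPL27A.

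On the small subunit side, RPS10 214001_x_at, for a protein of the subunit head, read 8.31 and 11.04 after 2 h, 10.63 and 11.11 after 4 h, 8.31 and 9.20 after 12 h, and 10.84 and 9.71 after 24 h. RPS27L 222487_s_at, for a paralog of RPS27, read 9.35 and 11.89, 11.00 and 11.60, 9.50 and 10.002, and 11.60 and 10.79. For both, the control array after 2 h and the arrays after 12 h were the lowest, and controls and quercetin arrays overlapped. Pairwise correlations among the 8 probe sets over the 8 arrays ran from 0.80 to 0.99 with a median of 0.95, given as a description because arrays of one time share handling.

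**Figure D2:**
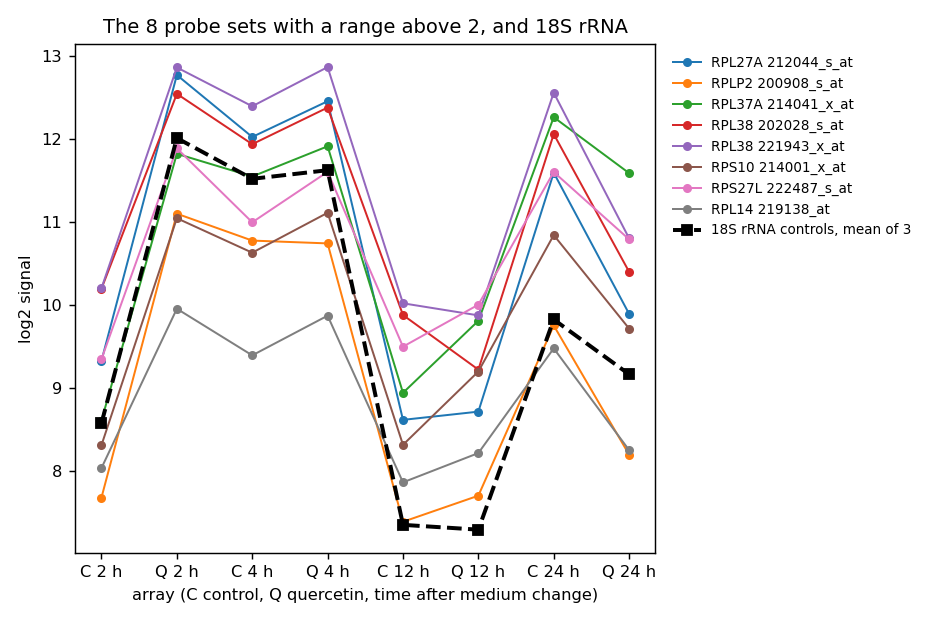
Log2 signal (vertical) of the 8 ribosomal protein probe sets with a range above 2 on each of the 8 arrays (horizontal, C control, Q quercetin, by hours), with the mean of the 3 18S rRNA control probe sets as a dashed black line. All lines are high in quercetin 2 h and both 4 h arrays, and low in control 2 h and both 12 h arrays, where the 18S mean is 8.57, 7.35 and 7.29.

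The same arrays stood apart for the rRNA control probe sets of the platform. The mean of the 3 18S probe sets was 8.57 and 12.01 after 2 h, 11.52 and 11.62 after 4 h, 7.35 and 7.29 after 12 h, and 9.82 and 9.16 after 24 h. The mean of the 3 28S probe sets was 10.62 and 11.77, 11.40 and 11.69, 9.81 and 10.08, and 11.06 and 10.59. The 28S probe sets differed among themselves: the 5′ one spanned 8.89 to 13.11, and the 3′ one 8.65 to 9.26. The hybridisation spike-ins, RNAs added to the sample during the array procedure (mean of 18 probe sets), read 11.24 and 12.11 after 2 h, 12.00 and 11.94 after 4 h, 11.19 and 11.35 after 12 h, and 12.01 and 11.83 after 24 h. These p-values, and those for 18S and array SD that follow, treat the 8 arrays as exchangeable; arrays of one time share handling, so they can be too small. The spike-ins too were lowest in control 2 h and both 12 h arrays, and correlated with 18S at r = 0.88 (exact permutation p = 0.00957), while 18S and 28S correlated at r = 0.98 (exact permutation p = 0.000124).

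RPL27A followed 18S most closely of the members. Pearson's r over the 8 arrays was 0.98 and Spearman's rho 0.98, with exact permutation p = 4.96e-05 and 0.000397, and without the 2 arrays farthest from the median 18S signal r was 0.96. RPLP2 200908_s_at gave r = 0.97 and rho = 0.90 (exact permutation p = 0.000198 and 0.00456), and r = 0.97 without those 2 arrays. RPL38 202028_s_at and 221943_x_at gave r = 0.95 and 0.94 (exact permutation p = 0.000546 and 0.00149), with rho of 0.98 and 0.95 (p = 0.000397 and 0.00114 by the same test), and RPL14 219138_at r = 0.92 and rho = 0.90 (exact permutation p = 0.00288 and 0.00456). Without the same 2 arrays r was 0.91, 0.90 and 0.91 for these. Adjusted over all 27300 probe sets the permutation p was 0.104 for RPL27A, the smallest in the table, and 0.111 to 0.176 for the other 4, so none passed the threshold.

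The remaining wide members had a higher r with the spike-ins than with 18S. RPS10 214001_x_at had r = 0.87 with 18S (exact permutation p = 0.00965, adjusted 0.234) and 0.96 with the spike-ins, RPS27L 222487_s_at 0.84 (exact permutation p = 0.0135, adjusted 0.258) and 0.97, and RPL37A 214041_x_at 0.77 (exact permutation p = 0.038, adjusted 0.332) and 0.97. Without the 2 arrays farthest in 18S, r with 18S was 0.89, 0.80 and 0.75. A Pearson r of at least 0.9 with 18S was reached by 5 of 105 members (4.76%) against 0.996% of all probe sets tested. An unadjusted p under 0.05 was reached by 11 members (10.5%) and by 3785 probe sets in all (13.9%), a lower share of the members, and an adjusted one by 0. Leaving out the 2 h pair gave a count of 8 in place of 5, and leaving out the 24 h pair 9. The spike-in signal divides the arrays into 3 low and 5 high ones, too few in each for a correlation within them, so 18S and spike-in signal cannot be told apart there.

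The bright members gave lower values. Among the 68, r with 18S ran from -0.42 to 0.63 with a median of 0.08. RPS12 217723_x_at and RPS19 242451_x_at, which have brighter and steadier partners, had r = 0.88 with 18S (exact permutation p = 0.0015 and 0.0011, adjusted 0.154 and 0.148) at ranges of only 0.42 and 0.48. Outside the ribosomal proteins, 16 probe sets combined r of at least 0.9 with 18S and a range above 2. They included probe sets of ALB, APOA1 and APOC3, all abundant liver messages, of EEF1D, an elongation factor subunit, and RNA45SN5, the rRNA precursor itself, and 6 had no listed symbol. The part that the rRNA or spike-in signal has in the values of the 8 members was not tested.

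**Figure D3:**
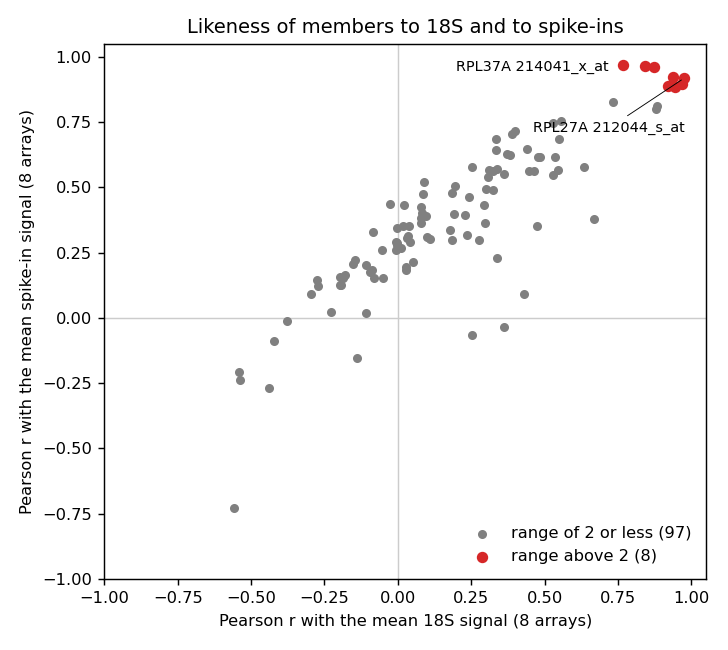
Pearson's r of each of the 105 tested members over 8 arrays with the mean 18S signal (horizontal) and with the mean spike-in signal (vertical). The 8 members with a range above 2 (red) lie at the upper right, RPL27A at 0.98 with 18S and RPL37A 214041_x_at at 0.77 with 18S and 0.97 with the spike-ins, and the 97 others spread over lower values on both axes.

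For RPL37A, RPL38, RPS10, RPS27L and RPL14 a brighter probe set of the same gene was steadier than the wide one. RPL27A had no other probe set among the members, and RPLP2 had no other bright one. Of the 34 genes with several probe sets, 9 had probe sets whose ranges differed by more than 1: RPL37A (by 3.49), RPL38 (3.02), RPLP2 (2.85), RPS10 (2.61), RPS27L (2.01), RPL14 (1.89), RPS24 (1.48), RPS27 (1.41) and RPS29 (1.03). RPL37A 201429_s_at had a range of 0.17 beside 3.66 for 214041_x_at, with r = 0.38 between them. RPL38 202029_x_at had a range of 0.31 at a mean of 14.28, and its r with 202028_s_at was 0.50, while the pair of wide RPL38 probe sets correlated at 0.99. These r values over 8 arrays are descriptions. The brighter probe sets lay nearer the top of the table, where the response of signal to message was not tested.

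For RPS10 there were 3 bright probe sets, 211542_x_at, 200817_x_at and 200095_x_at, with ranges of 0.24, 0.26 and 0.20, and 1 wide one. RPS27L 218007_s_at had a range of 0.53 at a mean of 13.68, RPL14 213588_x_at 0.21 at 14.52 and RPL14 200074_s_at 0.51 at 13.80. RPLP2's other probe set, 217670_at, was dim. An ending of _x_at or _s_at marks probe sets whose probes can match several transcripts, and 7 of the 8 wide probe sets carry one, as do the steady ones of RPL37A, RPL38 and RPS10. Many other members carry one too, so the ending does not set the wide 8 apart. Where 2 probe sets of a gene were both bright (22 pairs in 14 genes) they moved together, with r between 0.57 and 0.99 and a median of 0.93. Bright members of any genes moved together too, with a median pairwise r of 0.80. Such agreement is thus not shown to be particular to probe sets of 1 gene.

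**Figure D4:**
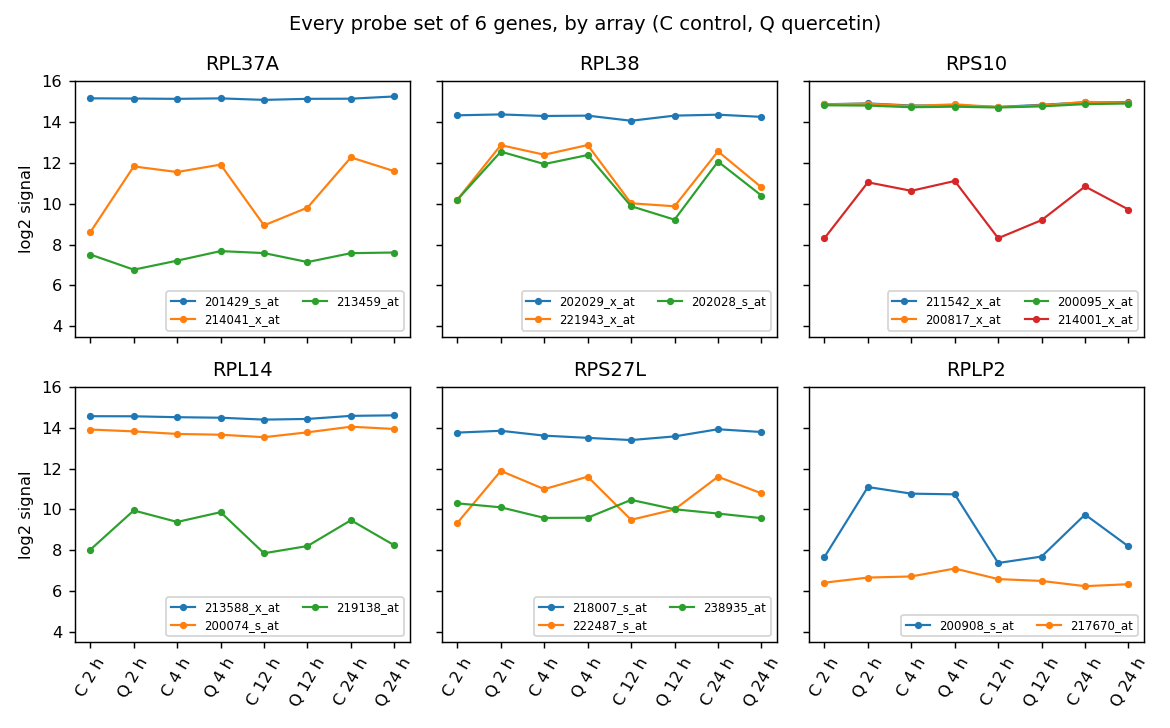
Log2 signal (vertical) of every member probe set of 6 genes on the 8 arrays (horizontal, C control, Q quercetin). For RPL37A, RPL38, RPS10, RPL14 and RPS27L a probe set with a mean between 13.68 and 15.15 is nearly flat while another of the same gene swings by 2.09 to 3.66; RPLP2 has a swing of 3.72 beside a dim probe set.

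The comparison of quercetin with control over the 4 times called no ribosomal protein. Limma, with time as a block and Benjamini-Hochberg adjustment, called 0 of 105 members and 0 of 27300 probe sets (0%). The smallest adjusted p of a member was 0.906, and an unadjusted p under 0.05 was reached by 2 members and by 1388 probe sets (5.08%). The 2 were RPL37A 214041_x_at at 0.94 ± 0.38 (SE) and RPS27L 222487_s_at at 0.71 ± 0.33, both among the wide 8. The median difference of the members was 0.027 against -0.022 for all probe sets as deposited, and turned to -0.0036 after quantile normalization.

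Members with the same sign at all 4 times numbered 11 (10.5%), below the 13.1% of all probe sets, so the count itself sets no member apart. The largest higher in quercetin were RPS19 242451_x_at at 0.09 ± 0.13 (SE), RPL27 200025_s_at at 0.09 ± 0.05, RPS14 208645_s_at at 0.06 ± 0.05, RPL7 212042_x_at at 0.06 ± 0.05 and RPS10 211542_x_at at 0.04 ± 0.05. Lower in quercetin were RPL31 221593_s_at at -0.26 ± 0.12, RPL35A 215208_x_at at -0.13 ± 0.13, RPS21 214097_at at -0.13 ± 0.11, RPL34 200026_at at -0.08 ± 0.06 and RPL12 214271_x_at at -0.05 ± 0.06. All had adjusted p above 0.9 in limma. Median member differences at the single times were 0, 0.016, 0.095 and -0.063 from the earliest to the latest, beside -0.059, -0.019, 0.049 and -0.088 for all probe sets.

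Differences of at least 1 between 1 quercetin and 1 control array, which have no replicate check, sat in the wide members after 2 h and 24 h. At 2 h the 8 wide members were the ones higher by at least 1 (7.62%, against 0.308% of all probe sets), from 1.92 for RPL14 219138_at to 3.45 for RPL27A. The 18S mean differed by 3.44 in the same pair. RPS24 1555878_at was lower by at least 1 after 2 h (9.36 in control and 7.97 in quercetin, against a background of 0.714%), while its bright partner 200061_s_at had a range of 0.20 over all arrays.

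At 4 h no member differed by 1 in either direction (background 0.0623% higher and 0.033% lower), and none after 12 h (0.689% and 0.0476%). At 24 h none was higher by 1 (0.242%) and 6 were lower (5.71%, against 0.253%). These were RPL38 221943_x_at (-1.76), RPL27A (-1.70), RPL38 202028_s_at (-1.66), RPLP2 200908_s_at (-1.56), RPL14 219138_at (-1.23) and RPS10 214001_x_at (-1.13). The 18S mean differed by -0.66 in the 24 h pair.

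The quercetin difference in the late pairs (12 and 24 h) was tested against that in the early pairs (2 and 4 h). Limma called the 8 wide members, all lower late (7.62%, against 0.176% of all probe sets), and 0 higher late (0.341%). RPL27A had a quercetin difference of 3.45 and 0.43 at 2 and 4 h, and of 0.10 and -1.70 at 12 and 24 h, which gave a mean late minus early value of -2.74 ± 0.38 (SE, limma adjusted p = 1.22e-06). RPL38 202028_s_at gave -2.56 ± 0.29 (limma adjusted p = 9.62e-09), 221943_x_at -2.52 ± 0.31 (4.21e-08) and RPLP2 200908_s_at -2.32 ± 0.43 (0.000621). RPS10 214001_x_at, RPS27L 222487_s_at, RPL37A 214041_x_at and RPL14 219138_at lay between -1.73 and -1.64 (limma adjusted p = 0.000411 to 0.00518). These SEs and p-values use a variance that limma pools over probe sets of similar signal. They do not show how far a member's own differences varied between the times. For RPL27A the early differences, 3.45 and 0.43, lay far apart, as did the late ones, 0.10 and -1.70.

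These calls were fewer when the 2 h pair, in which 18S and spike-in signals also differed, was left out. Without that pair, or without either of its arrays, 2 members were called, both probe sets of RPL38 (-1.60 and -1.42), and RPL27A was -1.23 (limma adjusted p = 0.0806). The sizes changed little when arrays were rescaled (-2.83 for RPL27A with cyclic loess and -2.67 with quantile scaling), but the count of called members was 0 after either. It was also 0 when limma's variance trend was left out.

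Time in serum-free medium was followed with both treatments in 1 model. Limma's F-test over the times called 36 of 105 members (34.3%), near the 29.3% of all probe sets. For 24 h against 2 h, 8 members were called higher (7.62%, against 12.7% of all) and 2 lower (1.9%, against 4.15%), both below the share of all probe sets. Limma called no member for 4 h or 12 h against 2 h, beside 0.011% and 1.16% of all probe sets. An unadjusted p under 0.05 was reached by 12 members for 4 h (11.4%, against 13.7% of all probe sets) and by 24 for 12 h (22.9%, against 15.0%). As deposited, 12 of 105 members were higher after 12 h than after 2 h (11.4%, against 42.5% of all probe sets), with a median of -0.14. Cyclic loess gave 66 higher with a median of 0.047, and quantile normalization 44 with -0.019. The direction after 12 h thus depended on the scaling.

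Among those higher after 24 h, RPL22L1 225541_at, for a paralog of RPL22, read 11.42 and 11.52 after 2 h (control, then quercetin), 11.08 and 11.10 after 4 h, 11.42 and 11.48 after 12 h, and 12.13 and 11.94 after 24 h. Both 24 h arrays lay above all others, and the difference from 2 h was 0.56 ± 0.14 (SE, limma adjusted p = 0.0135). RPL22 221726_at, for the paralog itself, read 11.83 and 11.56 after 2 h and 12.22 and 11.98 after 24 h, and its difference of 0.40 ± 0.14 was not called (limma adjusted p = 0.0647). It was the largest of the RPL22 probe sets. The brighter 208768_x_at, 220960_x_at and 221775_x_at differed by 0.12, 0.12 and 0.14, and by -0.043, -0.048 and -0.025 with cyclic loess. RPL22 214042_s_at differed by 0.27, and by 0.050 with cyclic loess. None of these was called. RPL29, a heparin-binding large subunit protein, was called on both of its probe sets: 200823_x_at rose from 13.55 and 13.85 to 14.18 and 13.98 (0.38 ± 0.11), and 213969_x_at from 14.07 and 14.23 to 14.51 and 14.41 (0.31 ± 0.09). RPL18 200022_at rose from 14.04 and 13.98 to 14.36 and 14.24 (0.29 ± 0.08). In these 3 the 24 h arrays were also the highest of the series.

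RPL31 200962_at, for a protein at the exit tunnel, read 10.12 and 10.14 after 2 h and 10.85 and 10.58 after 24 h (0.58 ± 0.17), while its bright probe set 200963_x_at differed by 0.07 (-0.069 with cyclic loess) and was not called. RPS21 214097_at rose by 0.60 ± 0.15, from 10.85 and 10.78 to 11.50 and 11.33, and RPL37 224763_at by 0.72 ± 0.20, from 7.80 and 7.72 to 8.54 and 8.42. Each of these genes has a brighter probe set with a range of 0.18 to 0.29. RPS21 200834_s_at differed by 0.05 and RPL37 200092_s_at by 0.06 (-0.10 and -0.086 with cyclic loess), and neither was called. No direction is therefore given for the RPL31, RPS21 and RPL37 messages. RPL37A 214041_x_at, one of the wide 8, had the largest called difference, 1.71 ± 0.54, from 8.60 and 11.82 to 12.26 and 11.59. The quercetin array after 2 h lay above that after 24 h, so the times overlapped, and without control 2 h the difference was 0.20.

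RPS27 236621_at went the other way. It read 9.10 and 9.01 after 2 h, 8.68 and 8.76 after 4 h, 8.01 and 8.46 after 12 h, and 7.49 and 8.07 after 24 h, a difference of -1.27 ± 0.21 (SE, limma adjusted p = 0.00117). In either treatment each later array read lower than the one before. RPS27 200741_s_at, the bright probe set of the same gene, had a range of 0.20, and r between them was -0.10. RPL35A 215208_x_at fell from 9.30 and 9.25 to 8.75 and 8.62 (-0.59 ± 0.18, limma adjusted p = 0.0366). This call was lost with median centring (limma adjusted p = 0.057) and kept with cyclic loess and quantile scaling. The brighter RPL35A probe sets 213687_s_at and 225190_x_at went the other way, by 0.315 and 0.302, and were not called. With cyclic loess they differed by 0.11 and 0.096. No direction is therefore given for the RPL35A message.

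The direction of the members as a group between 2 and 24 h depended on how arrays were scaled. As deposited, 86 of 105 were higher after 24 h with a median of 0.087 (all probe sets 0.061), while cyclic loess left 30 higher with a median of -0.069, and quantile normalization 56 with 0.017. The calls split into 8 higher and 2 lower as deposited, 11 and 1 with median centring, 1 and 5 with loess, and 3 and 3 with quantile scaling. The median signal of the 68 bright members ran from 14.34 to 14.56 over the arrays and was higher on arrays with a larger SD of all values (r = 0.91, exact permutation p = 0.00293, rho = 0.79, exact permutation p = 0.0279, n = 8 arrays). Without the 2 arrays of most extreme SD r was 0.71. The bright members moved up and down together, with a median pairwise r of 0.80 and all pairs above 0. RPS27 236621_at was lower after 24 h and called under each of the 4 scalings. Of the 8 called higher, RPL37 224763_at was also called with cyclic loess and with quantile scaling, and RPL18 200022_at and RPL29 213969_x_at with quantile scaling, while the other 5 lost their call under both and kept their sign. Their differences were smaller: RPL22L1 went from 0.56 to 0.33 with loess and 0.31 with quantile scaling, RPL31 200962_at from 0.58 to 0.36 and 0.29, RPS21 214097_at from 0.60 to 0.36 and 0.32, RPL29 200823_x_at from 0.38 to 0.20 and 0.27, and RPL37A 214041_x_at from 1.71 to 1.47 and 1.43. RPL18 200022_at and RPL29 213969_x_at went to 0.11 and 0.14 with loess. Of the 105 members, 63 changed sign under at least 1 of the 3 other scalings, and none of these 63 was called as deposited.

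**Figure D5:**
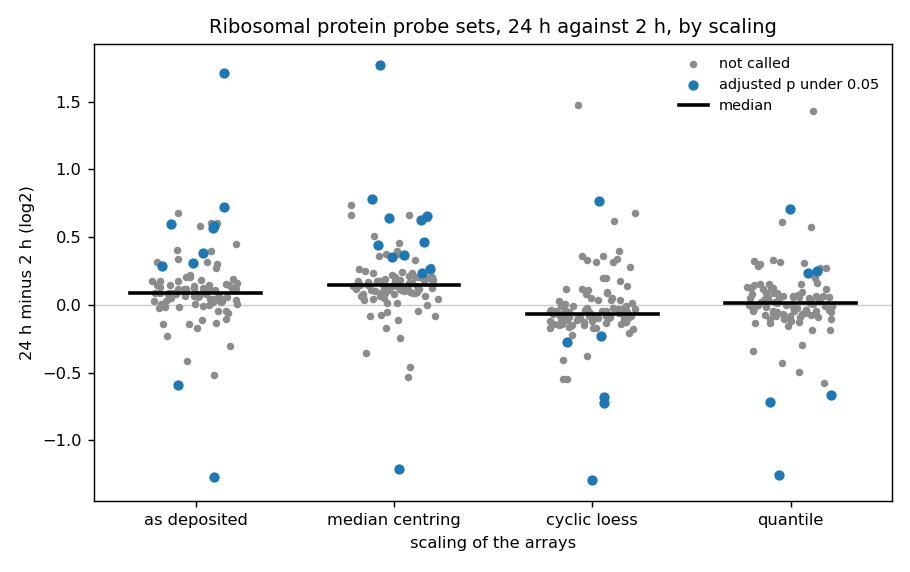
Difference between 24 h and 2 h (log2, vertical) of the 105 tested members under 4 scalings of the arrays (horizontal), with called members in blue (limma adjusted p under 0.05) and the median as a black bar. The median is 0.087 as deposited, 0.15 with median centring, -0.069 with cyclic loess and 0.017 with quantile scaling, so the side of 0 turns with the scaling.

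Single arrays also moved these counts. For 24 h against 2 h, 10 calls became 1 without control 24 h (RPS27 236621_at), 6 without control 2 h, 5 without the 4 h pair or either of its arrays, and 22 without the 12 h pair or either of its arrays. For the F-test, 36 calls became 7 without the 24 h pair, 10 without control 24 h, 20 without quercetin 24 h, 10, 11 and 14 without the 4 h pair, its control or its quercetin array, and 56, 58 and 71 without the 12 h pair, its control or its quercetin array.

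By role, with 1 probe set per gene, no ribosomal protein of any list was called for quercetin. Of the stalk, RPLP1 and RPLP2 were measured, and RPLP1 200763_s_at differed by 0.02 ± 0.06 (SE) with quercetin and by 0.18 ± 0.08 between 2 and 24 h. RPL11, which with RPL5 binds the 5S rRNA and restrains MDM2, lay between 14.00 and 14.30 and differed by 0.06 ± 0.06 with quercetin. Of the 6 measured exit tunnel proteins none was called after 24 h, beside 12.7% of all probe sets called higher and 4.15% lower. They ran from RPL39 208695_s_at at 0.0026 ± 0.07 (-0.14 with cyclic loess) to RPL19 200029_at at 0.22 ± 0.10. Of the 6 measured proteins of the small subunit head and decoding site none was called either on the deposited scale. They ran from RPS25 200091_s_at at -0.10 ± 0.08 to RPS23 200926_at at 0.06 ± 0.07 (-0.087 with cyclic loess). RPS25 200091_s_at was called lower with cyclic loess (-0.27, limma adjusted p = 0.0498) and was not called with quantile scaling (-0.18).

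The paralogs, which can replace a core protein in some tissues, had 6 measured members. Of these RPL22L1 was called after 24 h. RPL7L1 224738_x_at differed by 0.34 ± 0.13 (SE, limma adjusted p = 0.0924), RPL26L1 218830_at by 0.12 ± 0.13, and RPL10L 217559_at and RPL3L 206768_at, known from testis and muscle, by 0.03 ± 0.19 and -0.04 ± 0.18. The sixth, RPS27L, differed by 0.05 ± 0.10 on its bright probe set. Its probe set 238935_at differed by -0.51 (limma adjusted p = 0.0597). That probe set was called lower with cyclic loess (-0.72, limma adjusted p = 0.0140) and with quantile scaling (-0.72, limma adjusted p = 0.0188). The wide RPS27L 222487_s_at went the other way, by 0.58, and was not called. With cyclic loess RPL26L1 turned to -0.11, RPL10L to -0.020 and RPS27L to -0.14, so no direction is given for them.

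The genes that control or share the translation of these messages had calls after 24 h, at shares to be read against the 12.7% of all probe sets called higher, and none for quercetin. Of 18 measured translation factors and other messages with the pyrimidine tract, 3 (16.7%) were higher after 24 h: the initiation factor subunits EIF3A (0.52 ± 0.13) and EIF3H (0.38 ± 0.11) and the RNA-binding protein HNRNPA1 (0.42 ± 0.13). None was lower, and the median was 0.18. Of 13 regulators 3 (23.1%) were higher: DDIT4 (1.25 ± 0.22) and TSC1 (0.92 ± 0.18), which restrain mTOR, and RPS6KB1 (0.63 ± 0.19), the S6 kinase, with a list median of 0.39. Of 44 measured mitochondrial ribosomal proteins 7 (15.9%) were higher, near that background, among them MRPL44 (0.92 ± 0.24), MRPL13 (0.71 ± 0.15) and MRPL42 (0.67 ± 0.15), and the median was 0.21. These medians stand beside 0.087 for the cytosolic ribosomal proteins and 0.061 for all probe sets, all on the deposited scale, and the differences between lists were not tested.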

How the data were processed

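RNA of 8 HepG2 cultures was measured on 1-colour Affymetrix 3′ arrays. The authors deposited 1 table of log2 values. The submitters' processing notes name RMA, whose version and settings are not stated in the sources used here, and signal before RMA was not analysed here. Probe sets were named from the platform annotation (1801 with several symbols and 11777 unlisted ones were not named). Tests used limma 3.58.1 in R 4.3.3 (lmFit, then eBayes with a trend in variance, with Benjamini-Hochberg adjustment over 27300 probe sets with a mean above the median and a threshold of 0.05). The additive model of time and treatment leaves 3 residual degrees of freedom and the late-early model 2. Correlations used all 40320 orders of the 8 arrays (numpy 2.4.6), and the code was tested on simulated data. No standard error comes from replicate arrays, so the small number of arrays limits precision.

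The members, gene lists and tests were chosen with earlier results of these data known. Named probe sets were those called in a test (up to 10 per test and direction), the 10 widest over the arrays, the 5 largest quercetin differences of each sign shared by all times, the 5 brightest and dimmest, the probe sets of the 5 genes whose probe sets differed most, and up to 4 or the extremes of each list; RPL22 221726_at, RPS6 209134_s_at, RPS12 217723_x_at, RPL36A and RPS29 were added after their values were seen. Lists held 1 probe set per gene, that with the highest mean. Alternatives were other scalings, filters, probe set summaries, moderation, thresholds and blocks, and leaving out arrays.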

Additional observations from a re-analysis of the deposited data

Results flagged for a closer look

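For 8 probe sets the quercetin difference at 12 and 24 h was lower than that at 2 and 4 h by limma's test of that difference. The late minus early values were -2.74 for RPL27A 212044_s_at, -2.56 for RPL38 202028_s_at, -2.52 for RPL38 221943_x_at, -2.32 for RPLP2 200908_s_at, -1.73 for RPS10 214001_x_at, -1.73 for RPS27L 222487_s_at, -1.69 for RPL37A 214041_x_at and -1.64 for RPL14 219138_at. The 18S mean differed by 3.44, 0.10, -0.06 and -0.66 between quercetin and control at 2, 4, 12 and 24 h, and its part in these values was not tested.

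RPL37A 214041_x_at in quercetin at 12 h, with a signal of 9.81, lay far below the other 3 quercetin arrays (gap over range 0.846, above Dixon's critical value for 4 samples). Of 40 groups of 4 arrays examined this was the 1 so marked, and chance marks about 1 in 20.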

How the results depend on the processing

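No quercetin call appeared under any alternative run, no called value of a named member changed sign, nor did the quercetin differences named for a shared sign, and the count of 9 genes whose probe sets disagree stayed within 1.5 times. Calls over the times (36) were 14 after quantile normalization, 22 with no filter, 19 with 1 probe set a gene, 14 with probe sets averaged by gene, 11 with gene-specific probe sets, 12 without the variance trend and 7 to 71 with arrays left out. Calls at 24 h (10) were 6 after cyclic loess, 6 after quantile normalization, 3 with 1 probe set a gene, 4 when averaged, 6 with gene-specific probe sets, 6 without the trend, 16 at an adjusted p under 0.1 and 1 to 22 with arrays left out. Late minus early calls (8) were 0 after cyclic loess, quantile normalization, averaging by gene, no trend and no time block, 3 with no filter, 2 with 1 probe set a gene, 1 with gene-specific probe sets, 1 with robust moderation and 2 to 10 with arrays left out. The median at 24 h (0.087) was 0.147 with median centring, -0.069 with cyclic loess, 0.017 with quantile scaling and 0.041 to 0.146 with arrays left out. Of the 105 members, 63 changed sign at 24 h under another scaling, none of them called as deposited. The count following 18S (5) was 4 to 9 with arrays left out. Over the alternatives, calls of single named members at 24 h were lost 57 times and kept 73 times, and late minus early calls 43 and 77 times. Counting without the 8 wide members, an alternative chosen after seeing the data, gave 30 calls over the times, 9 at 24 h and medians of 0.023 for quercetin and 0.087 at 24 h. The cause of these changes was not tested, beyond the smaller number of members or arrays that some alternatives hold. The single array per condition limits every value, and 15 dim members were not tested.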
